A study of Homo sapiens with 16 samples.

Results

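Nascent transcription of 4 genes is described here: ABCB1, its neighbours ABCB4 and RUNDC3B on chromosome 7, and ENSG00000286886, which has no symbol. They are 4 of the 60605 Ensembl gene identifiers in the deposited count tables. ABCB1 and ENSG00000286886 were chosen by their measured fold changes after 6 Gy of ionizing radiation, which were high in batch 2 and near 0 in batch 1. Their responses to radiation are therefore given as a description, with no test. ABCB4 and RUNDC3B were chosen for their place beside ABCB1. The position of ENSG00000286886 is not given in the sources used here, so it is not assigned to this locus.

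PRO-seq maps RNA polymerases engaged on DNA by labelling RNA as it is made in nuclei. It was run here on LNCaP, a line of human prostate cancer cells that depends on the androgen receptor. In batch 1, cells were mock-treated or received 6 Gy, with replicates 1 and 2 in each group. Each of these replicates has libraries t1 and t2, which were summed and counted as 1 sample. In batch 2, with replicates 3 and 4, the groups were DMSO vehicle, vehicle with 6 Gy, 10 µM enzalutamide (an androgen receptor antagonist), and enzalutamide with 6 Gy. Treatment lasted 90 min in all, and irradiated cells were collected 60 min after the dose. Whether the mock cells of batch 1 received vehicle, and whether these times hold for batch 1, is not given in the sources used here. Nor do the labels say that replicates came from separate cultures, so p-values measure the spread between these samples, which may be technical. For batch 1 that spread is between sums, and it leaves out the larger spread between t1 and t2 of a replicate. Without summing, 379 genes passed an edgeR adjusted p of 0.05 after 6 Gy in batch 1, against 731 with it. For the difference in response between the batches, 2 passed without summing, against 31. Calls of single genes in batch 1 are from the summed samples.

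ABCB1 encodes P-glycoprotein (MDR1), an ATP-driven pump of the ABC transporter family that exports many drugs from cells and is known for multidrug resistance. ABCB4 encodes MDR3, a close paralog that moves phosphatidylcholine into bile in liver cells. RUNDC3B encodes a RUN domain protein. Ionizing radiation breaks DNA, and irradiated cells raise transcription of genes that stop the cell cycle, repair DNA or start cell death.

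The 3 genes lie close together on GRCh38 (the submitters' processing notes name hg38). By RefSeq on GRCh38.p14, ABCB4 spans chr7:87365896-87476027, ABCB1 spans chr7:87503017-87713295 and RUNDC3B spans chr7:87628398-87832296. A gap of 27.0 kb separates ABCB4 from ABCB1. ABCB1, on the minus strand, and RUNDC3B, on the plus strand, overlap over 84.9 kb, which is 40.4% of the ABCB1 span and 41.6% of the RUNDC3B span. ABCB1 has 2 annotated start regions 112 kb apart. RUNDC3B starts between them, so the overlap holds only for the ABCB1 span from the upstream start. From the downstream start, ABCB1 would not reach RUNDC3B. Which start was used was not tested. ABCB4 overlaps CROT over 33.9 kb (30.8% of ABCB4). Since the use of strand in counting is not stated, values of these pairs are uncertain where they overlap.

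The 250 bases before each of these starts are shown because they give the sequence setting of the gene that rose and of its overlapping neighbour that did not pass the test. The window of CROT is shown because this neighbour rose in both batches. All are from RefSeq on GRCh38.p14, 5′ to 3′ on the gene's own strand. Capitals mark matches, on either strand, to CCAAT (the CCAAT box), GGGCGG (the GC box) and AGAACA (an androgen receptor half-site). No 2 matches overlap. The promoter table has no entry for ABCB4 or ENSG00000286886.
ABCB1 upstream start, chr7:87713296-87713545, minus strand: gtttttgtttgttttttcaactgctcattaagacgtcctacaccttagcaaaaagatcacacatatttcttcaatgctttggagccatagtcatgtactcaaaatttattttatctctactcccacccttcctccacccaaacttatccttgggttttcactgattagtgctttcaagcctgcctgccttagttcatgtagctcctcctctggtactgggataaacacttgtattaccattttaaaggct
ABCB1 downstream start, chr7:87600885-87601134, minus strand: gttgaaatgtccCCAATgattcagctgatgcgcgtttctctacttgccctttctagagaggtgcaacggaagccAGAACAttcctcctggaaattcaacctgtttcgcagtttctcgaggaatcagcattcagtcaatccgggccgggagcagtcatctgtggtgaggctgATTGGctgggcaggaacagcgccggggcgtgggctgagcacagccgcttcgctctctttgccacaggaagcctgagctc
RUNDC3B start, chr7:87628148-87628397, plus strand: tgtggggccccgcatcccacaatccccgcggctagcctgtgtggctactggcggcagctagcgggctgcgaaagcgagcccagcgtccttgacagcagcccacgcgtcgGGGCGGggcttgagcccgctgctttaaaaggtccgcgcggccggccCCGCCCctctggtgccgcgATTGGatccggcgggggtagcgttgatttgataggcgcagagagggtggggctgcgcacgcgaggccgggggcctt
CROT start, chr7:87345414-87345663, plus strand: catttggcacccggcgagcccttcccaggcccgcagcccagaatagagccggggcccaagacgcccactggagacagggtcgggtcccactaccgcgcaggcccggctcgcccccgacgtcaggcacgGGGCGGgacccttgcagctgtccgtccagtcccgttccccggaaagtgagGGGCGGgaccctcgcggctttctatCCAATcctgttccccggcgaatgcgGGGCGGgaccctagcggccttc

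The downstream ABCB1 window has 2 CCAAT matches and 1 AGAACA match, and the upstream window has no match to any of the 3. The G and C content is 39.2% in the upstream ABCB1 window, 55.6% in the downstream one and 70.8% in that of RUNDC3B, with a median of 58.0% over all 35116 promoter windows of this length. Over those windows, CCAAT is found in 32.0%, GGGCGG in 42.6% and AGAACA in 12.4%. A match is a description of letters, and no match says only that these letters are not in the window.

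Libraries of batch 1 held 3438642 to 9363458 counts and those of batch 2 10494563 to 19905824. Levels are counts scaled to a common library size (CPM), with TMM factors set within a batch. The 7 LNCaP markers checked summed to between 2370 and 3380 CPM in every sample, and 10 markers of basal, fibroblast, blood and endothelial cells to between 16.8 and 25.8 CPM. The batches differed widely without radiation: between batch 2 vehicle and batch 1 mock, 49.0% of 29195 genes passed an edgeR adjusted p of 0.05. KLK3, the androgen-dependent gene of prostate-specific antigen, was at 180 and 177 CPM in mock cells and at 17.0 and 13.4 CPM in vehicle cells. The share of mitochondrially encoded genes was 2.86% to 5.38% per library in batch 1 and 0.57% to 0.934% in batch 2. Batch, vehicle and any difference in culture cannot be told apart in these comparisons.

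ABCB1 rose after 6 Gy in both arms of batch 2. It was at 11.2 and 12.6 CPM in vehicle cells (186 and 245 counts) and at 105 and 160 CPM after 6 Gy with vehicle (1541 and 2066 counts). With enzalutamide it was at 11.1 and 8.78 CPM (218 and 95 counts), and with enzalutamide and 6 Gy at 73.1 and 54.7 CPM (906 and 768 counts). Every irradiated sample of batch 2 was far above every unirradiated one. The log2 fold change after 6 Gy was 3.47 (SE 0.202), or 11.1-fold, with vehicle and 2.66 (SE 0.21), or 6.32-fold, with enzalutamide. Of the 28651 genes tested in batch 2, 1.10% passed with vehicle (0.743% higher, 0.353% lower) and 0.918% with enzalutamide (0.625% higher, 0.293% lower). In these bulk samples, more cells transcribing a gene and more polymerases per cell cannot be told apart.

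In batch 1 ABCB1 was at 5.72 and 4.92 CPM in mock cells (46 and 45 counts) and at 5.58 and 5.78 CPM after 6 Gy (71 and 97 counts). The irradiated samples lay between or just above the mock samples. The log2 fold change was 0.10 (SE 0.214), with a 95% interval of -0.36 to 0.57. The 8 libraries of batch 1, taken singly, lay between 4.14 and 6.67 CPM. After 6 Gy both t2 libraries (5.58 and 6.67 CPM) lay above both t1 libraries (5.52 and 4.73 CPM). The log2 fold change was 0.093 from t1 libraries alone and 0.11 from t2 libraries alone. Set side by side, the responses differed by -3.39 log2 units (SE 0.316), batch 1 minus batch 2.

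ENSG00000286886 followed the same course. It was at 4.5 and 3.44 CPM with vehicle (75 and 67 counts) and at 44.6 and 59.0 CPM after 6 Gy with vehicle (656 and 763 counts). With enzalutamide it was at 2.59 and 2.03 CPM (51 and 22 counts), and with enzalutamide and 6 Gy at 21.3 and 19.2 CPM (264 and 269 counts). The 4 irradiated samples of batch 2 again lay above all others. The log2 fold change after 6 Gy was 3.71 (SE 0.184) with vehicle and 3.09 (SE 0.21) with enzalutamide. Batch 1 had 5.97 and 4.26 CPM in mock cells and at 6.83 and 4.11 CPM after 6 Gy, so the groups overlapped, with a log2 fold change of 0.08 (SE 0.283). It was 0.45 from t1 libraries alone and -0.34 from t2 libraries alone. The library with the highest level in batch 1 was irradiated replicate 1, t1 (8.16 CPM, 65 counts), whose t2 partner had 4.55 CPM (22 counts).

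ABCB4 was transcribed at a low level in all groups, and its change after 6 Gy did not pass the test in either batch. In batch 2 it was at 2.70 and 2.46 CPM with vehicle (45 and 48 counts) and at 2.38 and 2.55 CPM after 6 Gy (35 and 33 counts). With enzalutamide it was at 1.42 and 2.96 CPM, and with enzalutamide and 6 Gy at 1.29 and 1.92 CPM. In batch 1 the values were 0.995 and 2.51 CPM in mock cells (8 and 23 counts) and at 2.36 and 1.31 CPM after 6 Gy (30 and 22 counts). The groups overlapped in each of these comparisons. The log2 fold change after 6 Gy was -0.07 (SE 0.327, edgeR adjusted p 0.96) with vehicle, -0.34 (SE 0.374, adjusted p 0.826) with enzalutamide and -0.01 (SE 0.432, adjusted p 0.997) in batch 1. At this depth the 95% interval with vehicle runs from -0.77 to 0.64.

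RUNDC3B, whose span overlaps part of the full annotated span of ABCB1 on the other strand, did not pass the test after 6 Gy either. In batch 2 it was at 14.4 and 13.4 CPM with vehicle (240 and 261 counts) and at 11.6 and 10.6 CPM after 6 Gy (171 and 137 counts). With enzalutamide it was at 13.5 and 11.9 CPM, and with enzalutamide and 6 Gy at 13.0 and 13.5 CPM. Both irradiated vehicle samples lay below both vehicle samples, while the enzalutamide groups overlapped. Such a separation can arise by chance with 2 samples a group, and its share over all genes was not counted. The log2 fold change was -0.32 (SE 0.142, edgeR adjusted p 0.429, unadjusted p 0.0416) with vehicle and 0.05 (SE 0.143, adjusted p 0.941) with enzalutamide. Levels in batch 1 were 5.35 and 3.28 CPM in mock cells and at 3.93 and 4.65 CPM after 6 Gy, with a log2 fold change of 0.02 (SE 0.269, adjusted p 0.994).

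The ratio of ABCB1 to RUNDC3B counts within a sample shows the same contrast without any scaling. It was 0.775 and 0.939 with vehicle and 9.01 and 15.1 after 6 Gy with vehicle. It was 0.816 and 0.736 with enzalutamide and 5.63 and 4.04 with enzalutamide and 6 Gy. In batch 1 it was 1.07 and 1.5 in mock cells and 1.42 and 1.24 after 6 Gy. The ratio of ABCB1 to ENSG00000286886 counts moved far less: it was between 2.35 and 4.32 in the 8 samples of batch 2 and between 0.816 and 1.41 in the 4 of batch 1.

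**Figure D1:**
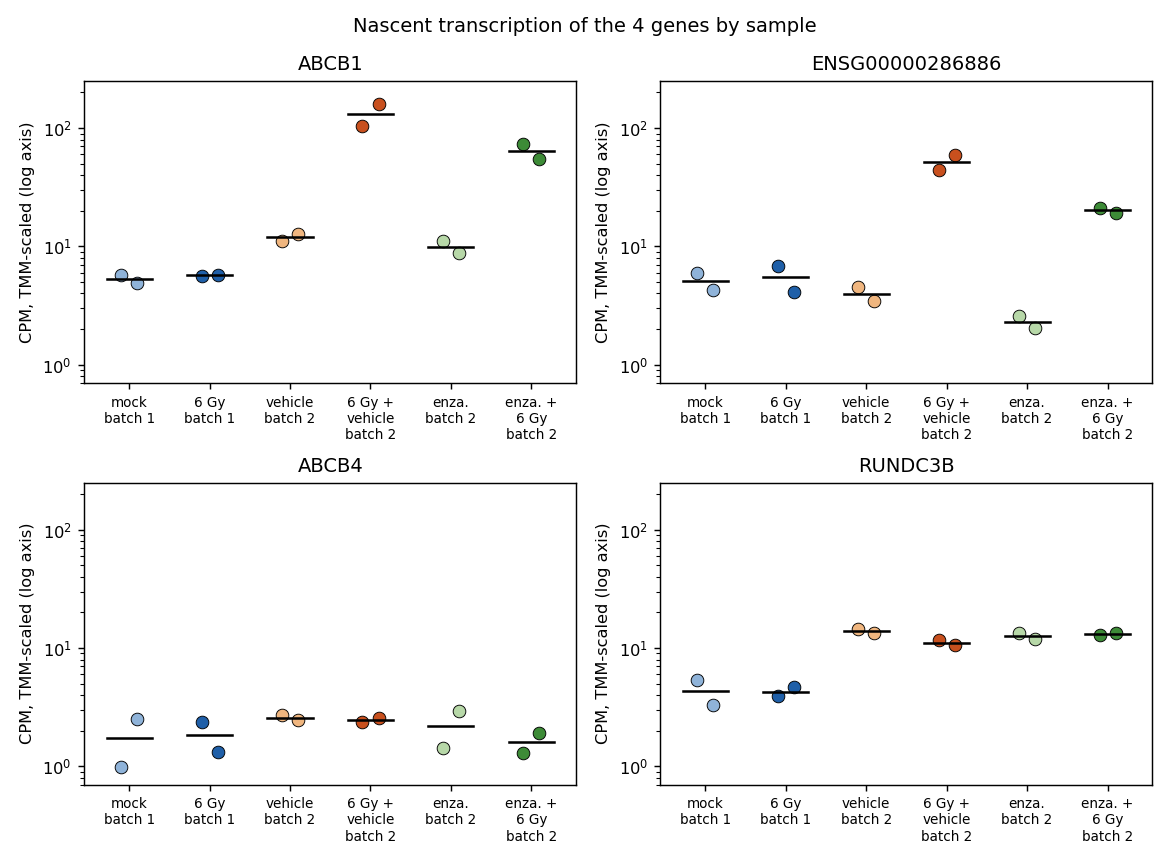
TMM-scaled CPM (log axis) of the 4 genes in each of the 12 samples, with 1 point per replicate and a bar at the mean of each group. ABCB1 and ENSG00000286886 are high in the 4 irradiated samples of batch 2, while ABCB4 and RUNDC3B stay within 0.995 to 2.96 and 3.28 to 14.4 CPM.

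Without radiation the members also differed in level between the batches, in a comparison where 49.0% of all genes passed. RUNDC3B was higher in batch 2 vehicle than in batch 1 mock by 1.66 log2 units (SE 0.213, edgeR adjusted p 5.51e-06). ABCB4 (0.48, SE 0.374, adjusted p 0.302) did not pass. Without mock replicate 2, ABCB4 passed (1.33, adjusted p 0.0434), and without mock replicate 1 it was at -0.009. The vehicle and mock samples are among those that chose ABCB1 and ENSG00000286886. All 13 genes of the locus list described below had values above 0 here, and 8 passed as higher, where 22.5% of all genes did.

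Enzalutamide was compared with vehicle, with and without 6 Gy. The samples compared are among those that chose ABCB1 and ENSG00000286886 for their rise, so their values are given as a description, with no test. After 6 Gy, ENSG00000286886 was at a log2 fold change of -1.35 (SE 0.159) with enzalutamide, and ABCB1 at -1.05 (SE 0.178). For both genes, both enzalutamide samples lay below both vehicle samples, and the share of all genes separated in this way was not counted. Leaving out each replicate in turn gave -1.54 to -1.14 for ENSG00000286886 and -1.32 to -0.72 for ABCB1. ABCB4 (-0.60, SE 0.365) and RUNDC3B (0.26, SE 0.145), which were chosen by position, did not pass by edgeR or DESeq2, each with an adjusted p of 1.0 by both tools, where 0.0105% of all genes passed by edgeR.

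Without 6 Gy the log2 fold change with enzalutamide was -0.24 (SE 0.226) for ABCB1 and -0.73 (SE 0.242) for ENSG00000286886. ABCB4 (-0.33, SE 0.334) and RUNDC3B (-0.12, SE 0.139) did not pass by edgeR, each with an adjusted p of 1.0, where 0.0105% of all genes passed. DESeq2 gave no adjusted p for these 2 genes. The difference in response to 6 Gy between the arms was fitted as an interaction, for which 0.00% of genes passed by edgeR, 0 by DESeq2, and 343 had an unadjusted p under 0.05. It was -0.81 (SE 0.288) for ABCB1 and -0.62 (SE 0.294) for ENSG00000286886, as a description. That of ABCB4 was -0.27 (SE 0.497) and that of RUNDC3B 0.37 (SE 0.201), both with an edgeR adjusted p of 1.0.

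The genes around ABCB1 were compared in the same way. Of 13 genes of the 7q21 region, between GRM3 and STEAP4, 2 passed as higher and 1 as lower after 6 Gy in batch 2 with vehicle, and 2 as higher and 1 as lower in batch 1. One of the higher calls in batch 2 is ABCB1 itself, which was chosen for it, so CROT was the only other neighbour higher there. With enzalutamide 2 passed as higher, ABCB1 and CROT, and 0 as lower, where 0.625% and 0.293% of all genes did. Over all genes tested in batch 2 with vehicle, 1.10% passed, 0.743% as higher and 0.353% as lower. The shares in batch 1 were 2.82%, 2.00% as higher and 0.819% as lower. The neighbours that rose were CROT, which encodes peroxisomal carnitine octanoyltransferase, in both batches, and TMEM243 in batch 1. The median log2 fold change of the 13 was -0.047 with vehicle and 0.016 in batch 1, against -0.006 and -0.002 over all genes.

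CROT, whose span runs into that of ABCB4, was at 101 and 115 CPM with vehicle, 203 and 221 CPM after 6 Gy, and in batch 1 at 68.5 and 72.6 CPM in mock cells and 173 and 183 CPM after 6 Gy. Its log2 fold change was 0.97 with vehicle, 0.87 with enzalutamide and 1.34 in batch 1 (edgeR adjusted p 0.000198, 0.000663 and 2.3e-05). CROT thus rose in batch 1, where the value of ABCB1 was 0.10.

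TMEM243 passed in batch 1 (0.77, edgeR adjusted p 0.0023) and not in batch 2 with vehicle (0.52, adjusted p 0.169), and the difference itself did not pass (0.22). DBF4, which encodes the activator of the CDC7 kinase, fell in batch 2 with vehicle (-0.44, adjusted p 0.0461) and in batch 1 (-0.56, adjusted p 0.00791), and did not pass with enzalutamide (-0.38, adjusted p 0.131). GRM3, ELAPOR2, DMTF1, SLC25A40, ADAM22, SRI and STEAP4 passed in none of the 3 radiation tests, with log2 fold changes between -0.60 (STEAP4, vehicle) and 0.25 (ELAPOR2, batch 1). Of the 13 genes, ABCB1 was the only one whose response passed as different between the batches, and that difference chose it. Over all genes 0.106% passed, 0.0514% with the lower change in batch 1, as for ABCB1, and 0.0548% with the higher.

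**Figure D2:**
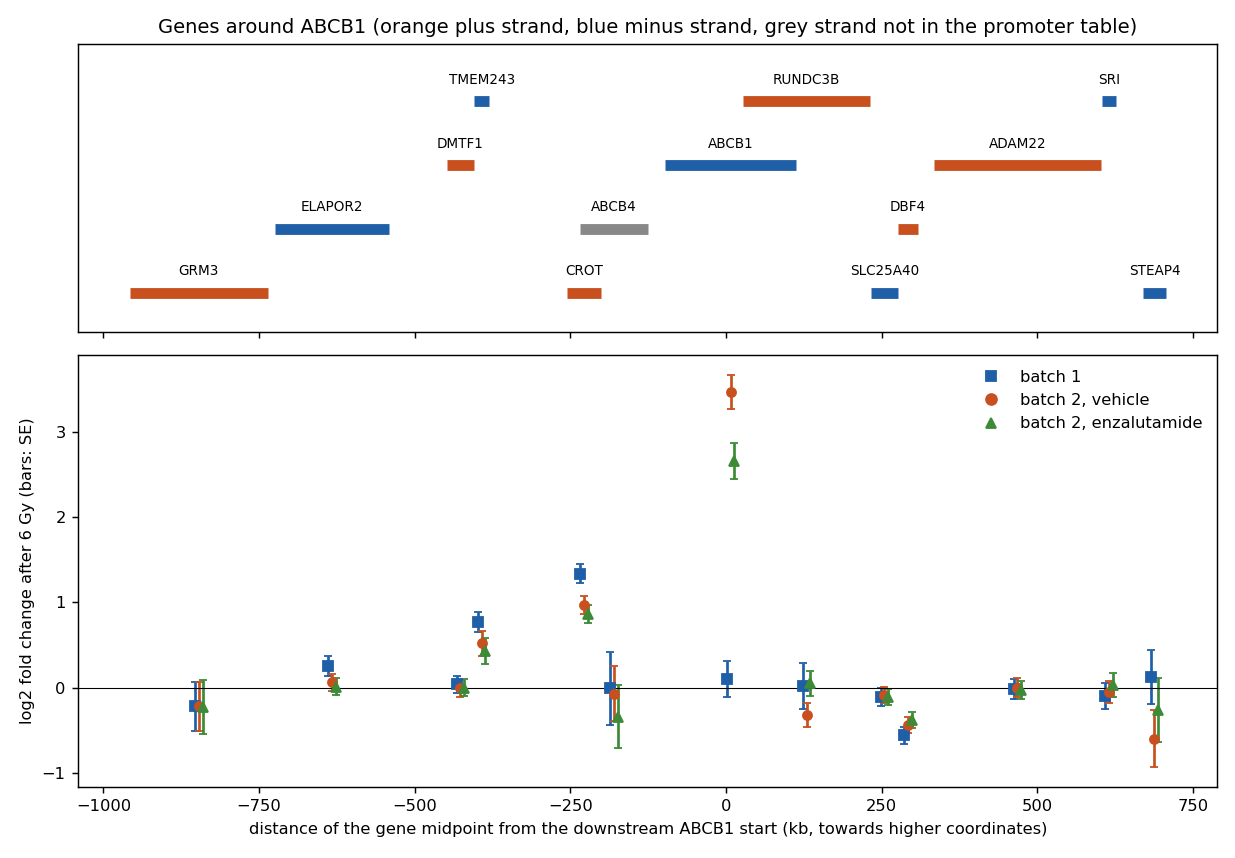
Top, spans of the genes around ABCB1 by distance (kb) from its downstream start. Bottom, log2 fold change after 6 Gy (± SE) at each gene's midpoint in batch 1 (blue squares), batch 2 with vehicle (orange circles) and with enzalutamide (green triangles). ABCB1 stands at 3.47 and 2.66 in batch 2 and at 0.10 in batch 1, while CROT is above 0 in all 3.

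The ABC transporter family was examined as the family of ABCB1. Of 48 genes, 47 passed the filter on low counts in batch 2. Apart from ABCB1, which was chosen for its rise, 1 gene passed after 6 Gy with vehicle, where 1.10% of all genes did. This was ABCA2, a lipid transporter of endolysosomes (0.71, SE 0.139, edgeR adjusted p 0.0245). With enzalutamide no other family member passed by edgeR, where 0.918% of all genes did, and ABCA2 was at 0.59 (adjusted p 0.0948). DESeq2 called 2 family genes there, with ABCB1 counted. In batch 1, where 2.82% of all genes passed, 3 of 47 passed by edgeR and 2 by DESeq2. The edgeR calls were ABCA2 (0.63, adjusted p 0.0049), ABCB6, a mitochondrial porphyrin transporter (0.58, adjusted p 0.0107), and ABCA7 (0.55, adjusted p 0.0203). TAP1, which carries peptides for antigen presentation, was at 1.21 with vehicle and 1.64 in batch 1 but did not pass (edgeR adjusted p 0.0901 and 0.067). Its counts were low, with a mean of 24.5 per sample. The median of the family was -0.015 with vehicle and 0.009 in batch 1, against -0.006 and -0.002 over all genes.

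Per kb of RefSeq gene span, the level of ABCB1 was 0.0564 CPM per kb with vehicle, rank 32 of the 48 family genes. After 6 Gy it was 0.629 CPM per kb, rank 16. With enzalutamide and 6 Gy it was 0.304 CPM per kb, rank 19, from 0.0472 and rank 34 without 6 Gy. In batch 1 it was 0.0253 and 0.027 CPM per kb, ranks 39 and 37. ABCB4 was at 0.0146 to 0.0234 CPM per kb over the 6 groups, ranks 39 to 45. The ABCB1 span used here is that from the upstream start. Whether reads were counted over whole genes or exons is not stated, which also limits comparisons between genes.

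Genes of transcription factors reported at the ABCB1 promoter, such as YBX1, NFYA, EGR1 and the xenobiotic receptor NR1I2, were also tested. Of 26 listed, 25 passed the filter, and 0 passed after 6 Gy in batch 2 with vehicle by edgeR or DESeq2, with 2 at an unadjusted p under 0.05. Since 1.10% of all genes passed there, 2.82% in batch 1 and 0.106% for the difference, counts of 0 in a list of this size are near the background. The smallest p-values were those of FOXO3 (0.27, edgeR adjusted p 0.225) and RELA (0.30, adjusted p 0.285). Of the 25, 0 passed in batch 1 by either tool (4 at an unadjusted p under 0.05), and 0 passed for the difference between batches by either tool (1 at an unadjusted p under 0.05, EGR1 at -0.67). Without radiation 9 were higher and 7 lower in batch 2 vehicle than in batch 1 mock, among them WT1, higher by 3.59 log2 units, and FOS, lower at -2.12. Over all genes 22.5% were higher and 26.5% lower in that comparison.

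A reference for the radiation itself was given by 20 genes listed as targets of the transcription factor p53, chosen as well-known responders. They were chosen with earlier results of these data known, so their rise is not an independent check. All 20 passed as higher in batch 2 with vehicle, with enzalutamide and in batch 1. Over all genes 0.743%, 0.625% and 2.00% did. The median log2 fold changes of the 20 were 1.67, 1.60 and 2.31. CDKN1A, the cell cycle inhibitor p21, was at 36.5 and 44.5 CPM with vehicle and 309 and 352 CPM after 6 Gy. In batch 1 CDKN1A was at 42.9 and 46.8 CPM in mock cells and at 546 and 579 CPM after 6 Gy. The response of these genes was thus measurable in both batches, and for 19 of 20 the value of the difference was higher in batch 1, of which 1, MDM2 (0.99, edgeR adjusted p 0.0268), passed.

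Genes that rose in batch 2 were next set against batch 1. Of 25370 genes tested in both batches, 72 passed as higher by at least 2-fold in both arms of batch 2. In batch 1, 68 of these 72 passed as higher. The other 4 were ABCB1 and ENSG00000286886, which were chosen for this pattern, PLEKHG6, a RhoA exchange factor (2.16 with vehicle, 1.56 with enzalutamide, -0.10 in batch 1), and ENSG00000285717 (1.64, 1.98 and -0.35). The cutoff of 2-fold was set with these values known.

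**Figure D3:**
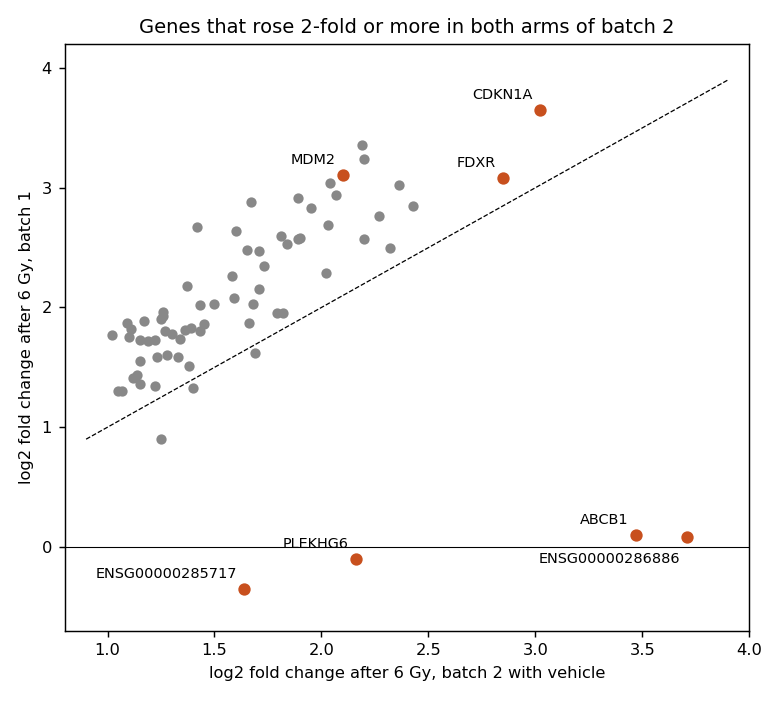
Log2 fold change after 6 Gy in batch 1 (vertical) against batch 2 with vehicle (horizontal) for the 72 genes higher by at least 2-fold in both arms of batch 2, with a dashed line of equal change. The 68 genes that passed in batch 1 lie at 0.90 or above, and ABCB1, ENSG00000286886, PLEKHG6 and ENSG00000285717 lie between -0.35 and 0.10.

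PLEKHG6 was at 6.24 and 10.9 CPM with vehicle and at 33.0 and 44.6 CPM after 6 Gy. It was at 8.98 and 8.87 CPM with enzalutamide and at 34.6 and 18.5 CPM with enzalutamide and 6 Gy. In batch 1 it was at 12.9 and 11.9 CPM in mock cells and at 11.8 and 11.4 CPM after 6 Gy. As with ABCB1, the irradiated samples of batch 2 lay above every unirradiated sample, and the irradiated samples of batch 1 did not. Unlike ABCB1, its unirradiated level was not lower in batch 1.

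Likeness to ABCB1 was measured by the Pearson correlation of log2 CPM over the 12 samples, each relative to the unirradiated samples without enzalutamide of its batch, among 18686 genes with a mean of at least 50 counts. The most alike was ENSG00000286886 (r = 0.985), followed by PLEKHG6 (0.970), CAMKK1 (0.957), MGAT4B (0.953) and DUSP8 (0.948). The last 3 changed little after 6 Gy with vehicle (log2 0.24, 0.29 and 0.44). RUNDC3B was at -0.355. For ENSG00000286886 the most alike were ABCB1 (0.985), C19orf53 (0.941), DPP3-DT (0.936), LINC00940 (0.932) and PLEKHG6 (0.929). These values are descriptions over samples that share libraries, controls and depth. ABCB1 and ENSG00000286886 were both chosen for this course over these same samples, so their high correlation followed from the choice.

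Among genes whose response to 6 Gy passed as different between the batches, 15 of 29195 (0.0514%) had the lower change in batch 1, and 7 of these had passed as higher in batch 2 with vehicle. Besides ABCB1, ENSG00000286886, PLEKHG6 (-2.28) and ENSG00000285717 (-2.01), they were GPA33 (-2.93), FAM124B (-2.23) and CPT1C (-1.90), the brain-type carnitine palmitoyltransferase. FAM124B and CPT1C fell in batch 1 (-0.79 and -0.89, edgeR adjusted p 0.000727 and 0.000228). GPA33 and FAM124B were uneven between the irradiated vehicle replicates (26.0 and 84.1 CPM, and 36.0 and 83.5 CPM). With enzalutamide, GPA33, FAM124B and CPT1C did not pass after 6 Gy (edgeR adjusted p 0.416, 0.114 and 0.596).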

How the data were processed

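PRO-seq was analysed from 2 tables of read counts per Ensembl gene identifier that the authors deposited, 1 per batch. These deposited counts are not normalized. The submitters' processing notes list cutadapt 1.8.1, Bowtie2 2.4.4, SAMtools 1.9 and hg38. The counting tool, annotation release, use of strand and treatment of duplicate reads are not given in the sources used here. Of 60605 identifiers, 99.8% matched a name. Libraries t1 and t2 of a replicate were summed, and no 2 libraries of a group were alike within sampling noise (chi-square per degree of freedom at least 2.98). In batch 1 the t1 and t2 libraries of a replicate lay farther apart (6.76 to 30.0) than libraries of the same t from different replicates (2.98 to 6.27), and what t marks is not given in the sources used here.

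Tests used edgeR 4.0.16 in R 4.3.3: filterByExpr, TMM factors, glmQLFit and glmQLFTest, two-sided, with Benjamini-Hochberg adjustment over all genes tested and a threshold of 0.05. Batch 2 was fitted with its 8 samples, batch 1 with 4, and the differences between batches with the 8 samples without enzalutamide. A standard error is the size of the fold change divided by the root of F. The steps were tested on simulated data: with gene-wise dispersions the share of false calls was above the threshold in each of the simulated comparisons, and a second simulation, with trended dispersions, was added after that was seen. DESeq2 1.42.0, other scaling, no filter, a replicate block, single t libraries and leaving out each replicate were alternatives. Named genes are the 4 members, the neighbours, the list genes with the smallest p, the 5 genes most like ABCB1 and the 5 most like ENSG00000286886, and genes that differ between batches. CROT, PLEKHG6, CDKN1A and KLK3 are shown by sample. The members, lists, motifs and the 2-fold cutoff were chosen with earlier results of these data known. Some genes of the lists are not reported here.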

Additional observations from a re-analysis of the deposited data

Results flagged for a closer look

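The response to 6 Gy differed between the batches for ABCB1 (-3.39 log2 units, batch 1 minus batch 2) and for ENSG00000286886 (-3.65). This difference chose both genes, so it is given as a value and not as a finding. In the 4 mock libraries of batch 1, taken singly, ENSG00000286886 had 1 library apart from the others: replicate 2, t1, at 3.38 CPM (18 counts) against 5.67 to 6.04 CPM, a gap of 0.861 of the group's range. Chance alone would set apart about 1 in 20 such groups, and 8 were examined.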

How the results depend on the processing

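Counts of genes passing moved with several settings. With no filter they were 624 (6 Gy with vehicle), 556 (6 Gy with enzalutamide), 74 and 64 (enzalutamide without and with 6 Gy), 32 (interaction), 1157 (batch 1) and 119 (difference between batches), against 314, 263, 3, 3, 0, 731 and 31. With the replicate number as a block they were 1315, 951, 55, 55, 1, 2332 and 96 in the same order. Deviations of same-numbered samples correlated across genes (0.235 to 0.441), but the labels do not say what a number marks. The block changed no call of ABCB4 or RUNDC3B. The batches share no replicate number, so vehicle and mock were not paired. DESeq2 gave 13 and 7 for enzalutamide without and with 6 Gy, and a fit of only the 4 samples compared gave 7 for the latter.

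In batch 1 the t1 libraries alone gave 3995 genes, the t2 libraries alone 9800, and libraries not summed 379. For the difference between batches these gave 452, 5646 and 2, and t1 alone gave 9168 of the 14316 genes between vehicle and mock. Leaving out each replicate in turn gave 161 to 511 (6 Gy with vehicle), 139 to 434 (with enzalutamide), 2 to 10 and 1 to 6 (enzalutamide without and with 6 Gy), 0 to 4 (interaction), 587 to 1509 (batch 1), 21 to 45 (difference) and 10619 to 14468 (vehicle against mock). The cause was not tested.

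The change of ABCB1 after 6 Gy with vehicle stayed between 3.14 and 3.75, and that of ENSG00000286886 between 3.49 and 3.91, over their 14 alternatives. Both genes were chosen for this rise in these same samples, so these ranges are a description. Values near 0 changed sign, and of these ABCB4 passed in 1 case, for vehicle against mock without mock replicate 2 (1.33, adjusted p 0.0434). ABCB4 in batch 1 was at 0.002 with no filter, 0.035 with DESeq2 and 0.51 with t1 alone, and its difference between batches was -0.023 with RLE factors and -0.42 with t2 alone. ENSG00000286886 in batch 1 was at -0.34 with t2 alone. Without 1 replicate, batch 1 values were -0.01 to 0.21 (ABCB1), -0.5 to 0.83 (ABCB4), -0.31 to 0.39 (RUNDC3B) and -0.3 to 0.42 (ENSG00000286886). ABCB4 was at -0.86 to 0.19 (6 Gy with enzalutamide), -0.85 to 0.2 (enzalutamide), -0.79 to 0.26 (interaction), -0.45 to 0.88 (difference) and -0.009 to 1.33 (vehicle against mock). RUNDC3B was at -0.026 to 0.16 (6 Gy with enzalutamide) and -0.003 to 0.69 (difference). A group left with 1 sample was assumed to vary like the others. ABCB4, with 8 to 48 counts per sample, was limited by depth.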
